A study of Mus musculus with 6 samples.

Results

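The transcription factor genes of the early neural plate and forebrain followed here, in epiblast-like cells (EpiLCs) with and without Oct6, were Pax6, Six3, Hesx1, Rax, Lhx2, Lhx5, Hes3, Hes5, Meis1 and Meis2. The 10 genes were chosen by name, and each was found by its Ensembl identifier among the 55416 genes of the raw counts. RNA-seq had been performed on 3 WT and 3 KO libraries, all from 46C mouse embryonic stem cells (mESCs) kept in 2i and LIF and then differentiated for 48 h on fibronectin in N2B27 medium with 1% KSR, bFGF and Activin A. The growth factors were at 12 (bFGF) and 20 (Activin A) per ml, a unit that is ng in the labels and µg in the study's methods. 46C cells carry GFP under the control of the neural gene Sox1, and the KO line is a single CRISPR/Cas9 clone with a homozygous insertion in Oct6 (Pou3f1), so that the effect of the genotype and that of the clone cannot be told apart.

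The neural plate forms from the anterior epiblast when signals that hold cells in pluripotency or direct them to mesoderm and endoderm are withdrawn. Pax6, Six3, Hesx1, Rax and Lhx2 are homeodomain factors that pattern the forebrain and the eye field, and Lhx5 is a LIM homeodomain factor of the anterior neural plate. Hes3 and Hes5 are basic helix-loop-helix repressors that keep neural progenitors undifferentiated, Hes5 being a classical target of Notch signalling. Meis1 and Meis2 are TALE homeodomain factors that bind DNA together with PBX proteins. EpiLCs stand before this step, in the formative state of pluripotency, and Oct6 is known to favour neural differentiation.

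Library totals ran from 10995505 to 14680930 counts. The 7 EpiLC markers examined, among them Pou5f1, Dnmt3b and Fgf5, summed to between 3137 and 3498 CPM (counts scaled to a common library size after TMM normalization) in WT and between 3154 and 3330 CPM in KO libraries, sums that Pou5f1 and Dnmt3b dominate. Of these 7 markers, 3 were higher in KO EpiLCs at an adjusted p below 0.1 in edgeR, namely Fgf5 (log2 fold change 0.65), Otx2 (0.92) and Sox2 (0.42), and none was lower. Of all genes tested, 11.8% were higher and 12.5% lower at that threshold. Oct6 itself was counted in both groups (142 ± 19.4 CPM in WT and 132 ± 7.59 CPM in KO, SD, n = 3), which does not test the labels, since the insertion does not remove the transcript. Values of single libraries are given in the order of replicates 1, 2 and 3, and counts from bulk RNA cannot tell fewer expressing cells from less RNA per cell.

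At 48 h the 10 genes were close to the limit of detection in both genotypes. Together they took 49, 46 and 48 counts in the WT and 36, 45 and 69 in the KO libraries, which is between 0.000289% and 0.000522% of a library. Meis1, Meis2 and Pax6 were counted in all 6 libraries, 6 of the genes in some libraries, and Six3 in none. The means of 7 genes lay below 0.25 CPM in both groups. Six3 (ENSMUSG00000038805.11, chromosome 17 of GRCm39, 85920640 to 85936730), a forebrain factor that restrains Wnt signalling, had 0 counts in 6 libraries, which allows at most 0.0766 CPM in WT and 0.0777 CPM in KO EpiLCs (3 counts over the 3 libraries of a group, counting error only).

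**Figure D1:**
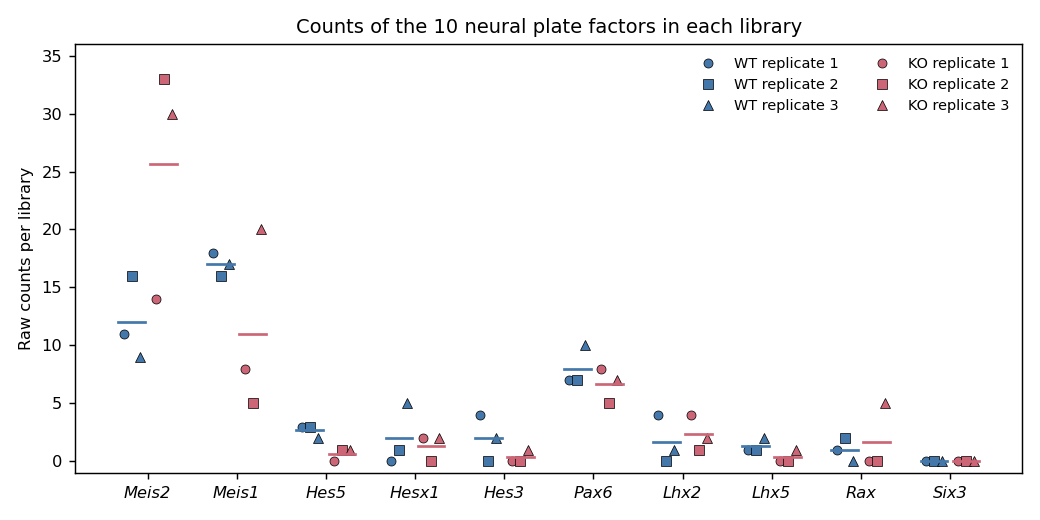
Raw counts (y axis) of each gene (x axis) in the 3 WT (blue) and 3 KO (red) libraries, with the symbol giving the replicate and the horizontal line the mean of 3. Meis1 and Meis2 carry most of the counts, up to 33 in a library, Pax6 stays between 5 and 10, and the others reach at most 5.

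Relative to the length of their exons and over all 6 libraries, the genes were ordered as Meis2, Meis1, Hes5, Hesx1, Hes3, Pax6, Lhx2, Lhx5, Rax and Six3. The level of Meis2 was 0.113 ± 0.0602 CPM per kb of exon (SD over 6 libraries) and that of Meis1 was 0.0958 ± 0.0409 CPM per kb. Hes5 stood at 0.0955 ± 0.0746 CPM per kb, since its exons are short, and Pax6, with long ones, at 0.0353 ± 0.00684 CPM per kb. The order of the means, not tested within a genotype, was another one in each group, since Hes5 (0.154 CPM per kb) and Meis1 (0.117) led in WT, where Meis2 stood at 0.0743, and Meis2 (0.153) and Meis1 (0.0749) led in KO EpiLCs, where Hes5 stood at 0.0371. None of the 9 neighbouring pairs in the order over 6 libraries differed beyond the spread between libraries (two-sided exact sign-flip test over 6 libraries, p from 0.25 to 1, adjusted p from 0.95 to 1). The pairs were set by the same means, with both genotypes pooled. Rax was counted in 3 libraries and Six3 in none, so that 0.25 was the smallest p this test could give that pair. All 10 genes lay below the median of 21627 protein-coding genes, which was 0.681 CPM per kb. Meis2 exceeded 36.3% of protein-coding genes and Rax 25.4%, in a transcriptome in which 18.3% of protein-coding genes had no count at all.

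**Figure D2:**
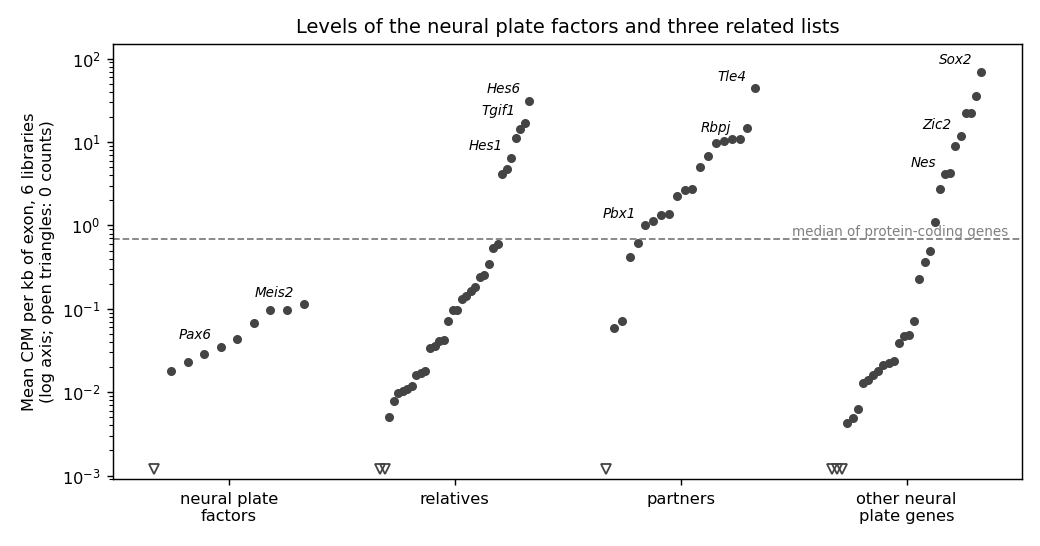
Mean level over 6 libraries in CPM per kb of exon (log y axis) of the 10 neural plate factors, their 34 relatives, 20 partners and 30 other neural plate genes, each gene a point sorted within its list. The neural plate factors all lie below the dashed median of protein-coding genes, whereas 7 relatives, 15 partners and 10 other neural plate genes lie above it.

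Of the 10 genes, 2 passed the filter on low counts (at least 0.757 CPM, or about 10 counts, in 3 libraries) and were tested, and 1 of them, Meis2, had an adjusted p below 0.1. Of the 15746 genes of the whole table that could be tested, 24.3% did, as did 15% among those 2723 whose mean lay below 2 CPM. Meis2 (ENSMUSG00000027210.21, chromosome 2 of GRCm39, 115693062 to 115896341, minus strand) had 11, 16 and 9 counts in the WT and 14, 33 and 30 in the KO libraries. As CPM these were 0.821, 1.46 and 0.609 in WT and 1.13, 2.55 and 2.26 in KO EpiLCs. KO replicates 2 and 3 lay above every WT library, KO replicate 1 lay below WT replicate 2, and the KO library was the higher one in each of the 3 pairs of equal number. The means were 0.963 ± 0.443 CPM (SD, n = 3) in WT and 1.98 ± 0.746 CPM in KO EpiLCs. On the log2 scale Meis2 was thus 1.07 higher (standard error 0.43, 95% interval from 0.17 to 1.97, adjusted p = 0.0924 by edgeR). A log2 fold change of at least 1 in either direction together with an adjusted p below 0.1, which Meis2 also met, was seen for 6.21% of the genes tested.

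The call of Meis2 was narrow. It was lost in DESeq2 (log2 fold change 1.07, adjusted p = 0.151) and on leaving out any of 4 libraries, WT replicate 1 (log2 fold change 0.99), WT replicate 3 (0.81), KO replicate 2 (0.85) and KO replicate 3 (0.97). Over the alternatives that gave it a value, the adjusted p of Meis2 ran from 0.0505 to 0.302 in edgeR and DESeq2, and the direction was the same in each.

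Meis1 (ENSMUSG00000020160.19, chromosome 11, 18829817 to 18969749, minus strand), the paralog, had 18, 16 and 17 counts in the WT and 8, 5 and 20 in the KO libraries. The 3 WT libraries were close together, whereas KO replicates 1 and 2 lay below all of them and KO replicate 3 above. The means were 1.32 ± 0.157 CPM (SD, n = 3) in WT and 0.846 ± 0.585 CPM in KO EpiLCs. The log2 fold change was −0.62 (standard error 0.47, 95% interval from −1.60 to 0.37, adjusted p = 0.417 by edgeR). This value leaned on KO replicate 3 and was −1.33 without it (adjusted p = 0.123) and −0.27 without KO replicate 2. The difference in means between WT and KO EpiLCs was thus not larger than the spread between KO libraries.

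Markers of other cell types were summed in the same libraries. KO replicate 3, highest for Meis1, held the highest sum of 8 extraembryonic markers such as Gata6 and Dab2 (15.3 CPM, against 12.6 and 5.55 CPM in KO replicates 1 and 2 and 5.29 to 8.21 CPM in WT) and of 10 primitive streak and endoderm markers such as Eomes and Sox17 (19.0 CPM, against 16.8 and 12.6 CPM in KO replicates 1 and 2 and 9.20 to 11.8 CPM in WT). WT replicate 2, nearly as high for Meis1 (1.46 against 1.504 CPM), had the lowest extraembryonic sum, 5.29 CPM. For Meis2 the highest library was KO replicate 2. Its extraembryonic sum of 5.55 CPM lay within the range of the WT libraries, and its streak and endoderm sum of 12.6 CPM lay above their range. The part of other cell types in the levels of Meis1 and Meis2 was not tested.

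By the shape of their log2 level (CPM plus 0.1) over the 6 libraries, the genes most like Meis1 were Stat5a and Cnnm2 (Pearson r = 0.99 and 0.989), and those most like Meis2 were Rab33a and Med27 (0.987 and 0.982). These are descriptions over 6 libraries that share their genotype groups and depth, among 12657 protein-coding genes of which 98 for Meis1 and 113 for Meis2 had an r above 0.9.

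Sequences before RefSeq starts of the genes were examined for motifs, as Oct6 binds DNA as a POU factor. RefSeq promoter windows (250 bases before to 50 after a start, built on GRCm38.p6) were found for 7 of the 10 genes, 9 windows in all, and none for Rax, Lhx5 and Hes3. A RefSeq start need not be the outer end of the gene positions given here. The upstream bases of Meis1, Meis2, Hesx1 and Six3, and of a further window of both Lhx2 and Pax6, lie inside those positions. The octamer ATGCAAAT, searched on both strands, was in 0 of the 9 windows, and 1.74% of all 32851 windows held it. The RBPJ motif TGGGAA, through which Notch acts, was in 5 windows of 4 genes (Hes5, Hesx1, Lhx2 and Meis1), and 25.6% of all windows held it. CpG dinucleotides were at 0.481 to 1.04 times the number expected from base composition, with a median of 0.747 against 0.384 for all windows, and 7 of the 9 windows exceeded 0.6, as 35.8% of all windows did. A match or its absence describes these letters in these windows and nothing about binding.

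The 250 bases before the RefSeq start are shown for the 2 genes that could be tested, Meis1 and Meis2, and for Hes5, whose groups did not overlap. For Meis1 and Meis2 this start lies inside the gene, whose outer ends on the minus strand are at 18969749 and 115896341. They are written 5′ to 3′ on the strand of the gene, in capitals where TGGGAA or its reverse complement lies. Each RefSeq sequence matched GRCm39 at a single place, chr11:18968970-18969219 (minus strand) for Meis1, chr2:115895101-115895350 (minus strand) for Meis2 and chr4:155045130-155045379 (plus strand) for Hes5.
Meis1: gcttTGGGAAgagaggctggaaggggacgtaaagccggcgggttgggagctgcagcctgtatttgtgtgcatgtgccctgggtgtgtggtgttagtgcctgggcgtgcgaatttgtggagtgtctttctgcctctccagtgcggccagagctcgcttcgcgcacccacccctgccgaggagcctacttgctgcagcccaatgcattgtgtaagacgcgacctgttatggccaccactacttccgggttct
Meis2: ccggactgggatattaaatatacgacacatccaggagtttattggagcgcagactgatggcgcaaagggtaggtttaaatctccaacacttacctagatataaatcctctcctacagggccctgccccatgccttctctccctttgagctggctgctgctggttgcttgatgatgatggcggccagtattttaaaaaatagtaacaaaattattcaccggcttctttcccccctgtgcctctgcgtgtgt
Hes5: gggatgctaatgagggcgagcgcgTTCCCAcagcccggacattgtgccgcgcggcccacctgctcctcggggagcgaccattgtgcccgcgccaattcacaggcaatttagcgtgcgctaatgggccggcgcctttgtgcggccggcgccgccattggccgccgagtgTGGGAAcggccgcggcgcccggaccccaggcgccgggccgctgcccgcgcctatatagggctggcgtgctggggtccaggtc
Hes5 held the motif at 2 places, beginning 226 bases before the start on the opposite strand and 82 bases before it on the strand of the gene. Meis1 held it once, beginning 246 bases before the start, and Meis2 held none.

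Of the HES factors, Hes5 (ENSMUSG00000048001.8, chromosome 4, 155045373 to 155046828, plus strand) had 3, 3 and 2 counts in the WT and 0, 1 and 1 in the KO libraries. Every KO library lay below every WT library, which was so for Hes5 alone among the 10 genes and for 21.5% of the 30691 genes with a count, in one direction or the other. The means were 0.211 ± 0.0701 CPM (SD, n = 3) in WT and 0.0508 ± 0.0440 CPM in KO EpiLCs (p = 0.1, two-sided exact permutation test over 6 libraries, the smallest p that 3 against 3 can give). The ratio of KO to WT counts, 2 against 8 with library size taken into account, was 0.254 with a 95% counting interval from 0.0262 to 1.27, so that a difference was not detectable at this depth. Without the filter on low counts, edgeR gave Hes5 an adjusted p of 0.572. Of the exonic bases of Hes5, 32.1% lie opposite exons of the lncRNA gene Gm20421, which had 1 count in 6 libraries.

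Hes3 (ENSMUSG00000028946.8, chromosome 4, 152370427 to 152376136), on the same chromosome, had 4, 0 and 2 counts in the WT and 0, 0 and 1 in the KO libraries. Its groups overlapped at 0, and the count ratio of KO to WT was 0.169 with an interval from 0.00367 to 1.39 (p = 0.4, two-sided exact permutation test over 6 libraries). As for Hes5, the interval of Hes3 included 1.

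Pax6 (ENSMUSG00000027168.22, chromosome 2, 105499234 to 105530952, plus strand), a factor of eye and forebrain, had 7, 7 and 10 counts in the WT and 8, 5 and 7 in the KO libraries. The groups overlapped, with means of 0.613 ± 0.0803 CPM (SD, n = 3) in WT and 0.520 ± 0.131 CPM in KO EpiLCs (p = 0.5, two-sided exact permutation test over 6 libraries). The count ratio was 0.845 with a 95% counting interval from 0.443 to 1.60, the narrowest interval among the genes outside the filter. The abundant gene Elp4, on the opposite strand, shares 3393 exonic bases with Pax6, or 21.1% of those of Pax6, and had between 229 and 302 counts per library. The library kit was a stranded one. The sources used here do not state whether counting used the strand, so that the part of Elp4 in the Pax6 counts was not tested.

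The remaining homeodomain genes had between 0 and 5 counts per library. Hesx1 (ENSMUSG00000040726.11, chromosome 14, 26716286 to 26725220), a repressor needed for the anterior forebrain and pituitary, had 0, 1 and 5 counts in the WT and 2, 0 and 2 in the KO libraries, a count ratio of 0.676 (95% counting interval from 0.140 to 2.85). Lhx2 (ENSMUSG00000000247.12, chromosome 2, 38229293 to 38259759), needed for eye and cortex, had 4, 0 and 1 counts in the WT and 4, 1 and 2 in the KO libraries, a ratio of 1.42 (0.388 to 5.67). For Hesx1 and Lhx2 the groups overlapped, and the exact permutation test gave p = 0.9 and p = 0.5.

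Lhx5 (ENSMUSG00000029595.10, chromosome 5, 120569764 to 120579292) had 1, 1 and 2 counts in the WT and 0, 0 and 1 in the KO libraries, a ratio of 0.254 (95% counting interval from 0.00515 to 2.56, p = 0.2 in the two-sided exact permutation test). Rax (ENSMUSG00000024518.5), the eye field factor, had 1, 2 and 0 counts in the WT and 0, 0 and 5 in the KO libraries, so that all of its KO counts were in KO replicate 3 (ratio 1.69, interval from 0.329 to 10.9, p = 1 in the same exact test). For both genes the groups overlapped. Over the 9 genes with counts, the ratio was below 1 in 6 and above 1 in 3, and the interval, which covers counting error only, excluded 1 for Meis2 alone. Without the filter, edgeR's adjusted p for the 7 genes counted but not tested lay between 0.56 and 0.871.

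**Figure D3:**
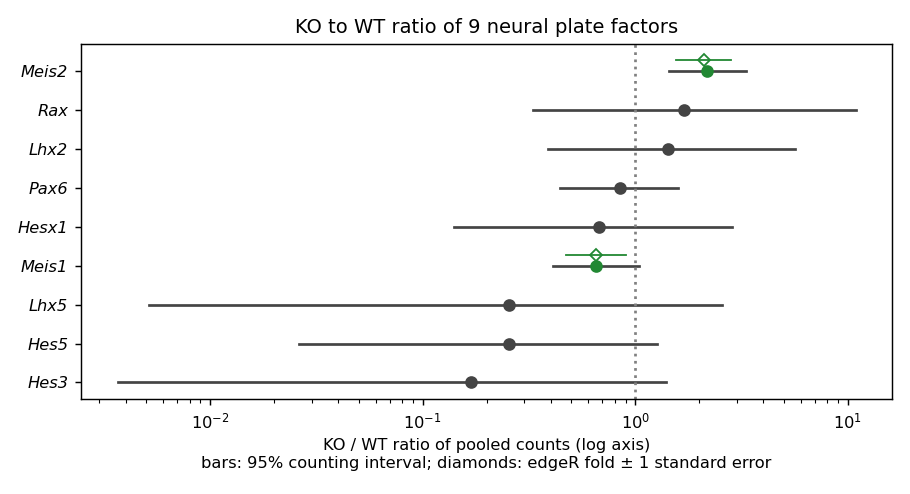
Ratio of KO to WT counts pooled over 3 libraries each (x axis, log scale) for the 9 genes with counts, with bars for the 95% counting interval and, for the tested genes in green, diamonds and lines for edgeR's fold change ± 1 standard error. The interval of Meis2 starts at 1.44, above 1, and the other 8 intervals include 1.

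Unlike the 10 genes, several of their relatives were well expressed. Hes6 (31.4 CPM per kb of exon), which counteracts Hes1, Tgif1 (17.1), Six4 (14.4), Tgif2 (11.2) and the Notch target Hes1 (6.52) each exceeded at least 77.8% of protein-coding genes. Of 34 relatives (other members of the PAX, VSX, LIM homeodomain, HES, HEY and TALE families and the paralogs of Six3), 14 were tested and 4 passed the same threshold (28.6%, against 24.3% of all genes), 2 higher and 2 lower in KO EpiLCs, with a median log2 fold change of −0.089 against 0.0014 for all genes tested. Hey1, a Notch effector, stood at 1.87, 1.64 and 1.83 CPM in the WT and 0.648, 0.386 and 0.527 CPM in the KO libraries. Every KO library lay below every WT library, and the log2 fold change of Hey1 was −1.76 (standard error 0.42, adjusted p = 0.00574 by edgeR). Pax8 fell by 1.55 on the log2 scale (standard error 0.44, adjusted p = 0.017 by edgeR), from 1.98 ± 0.220 to 0.664 ± 0.379 CPM (SD, n = 3). Six4 rose by 0.31 (standard error 0.10, adjusted p = 0.0392 by edgeR), and the TALE gene Pknox2 by 1.28 (standard error 0.45, adjusted p = 0.0571 by edgeR).

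The calls of Six4 and Pknox2 did not hold when libraries were left out. That of Six4 was lost on leaving out replicate 1 or 2 of the WT or replicate 2 or 3 of the KO libraries (0.27 to 0.29 on the log2 scale), and that of Pknox2 without any library other than KO replicate 3 (0.89 to 1.36). The third MEIS gene, Meis3, was below the filter and is named after its values were seen. It had 15, 10 and 10 counts in the WT and 2, 4 and 2 in the KO libraries, with no overlap between the groups, a count ratio of 0.232 (95% counting interval from 0.0929 to 0.509) and, without the filter, an adjusted p of 0.0341 from edgeR. Lhx1, chosen in the same way, had 0 counts in every WT library and 9, 0 and 3 in the KO libraries.

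Most of the known partners and co-factors of the 10 genes were expressed, and 15 of 20 lay above the median of protein-coding genes. The list held the PBX partners of MEIS, the LDB, LMO and SSBP components of LIM complexes, and Rbpj. It also held the TLE family, which includes co-repressors of Hesx1, Six3 and HES factors. Of 16 partners tested, 7 passed (43.8%, against 24.3% of all genes tested), 2 higher and 5 lower in KO EpiLCs. Their median log2 fold change was −0.16. Whether this share exceeds that of genes of like level was not tested. The TLE genes Tle5 and Tle6 fell, from 33.4 ± 0.743 to 17.7 ± 3.37 CPM and from 5.40 ± 1.69 to 1.65 ± 0.323 CPM (SD, n = 3), with log2 fold changes of −0.91 (standard error 0.14, adjusted p = 1.29e-04 by edgeR) and −1.69 (standard error 0.30, adjusted p = 5.26e-04 by edgeR). Tle4, the most abundant TLE gene, had 313 ± 10.1 and 311 ± 8.997 CPM (log2 fold change −0.0094, standard error 0.091). Tle1 and Tle3 did not pass (adjusted p = 0.206 and 0.197 by edgeR). Whether the supply of co-repressors differed was not tested. Tle5, Tle6 and Tle2 lie close together on chromosome 10, and Tle2, below the filter and named after its values were seen, had 12, 12 and 10 counts in the WT and 3, 3 and 1 in the KO libraries. Exons of Tle2 lie opposite 14% of the exonic bases of Tle6.

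Among the components of LIM complexes, Ssbp3 fell by 0.50 on the log2 scale (standard error 0.10, adjusted p = 0.00173 by edgeR), with 1375, 1046 and 1285 counts in the WT and 859, 809 and 923 in the KO libraries, while Ssbp2 rose by 0.92 (standard error 0.20, adjusted p = 0.0032 by edgeR), from 4.93 ± 1.03 to 9.29 ± 0.631 CPM. Ssbp4 rose by 0.39 (adjusted p = 0.0452 by edgeR) and Pbx2 fell by 0.36 (adjusted p = 0.0436 by edgeR). The call of Ssbp4 was lost in 4 of the 6 fits with a library left out (all but those without WT replicate 1 or KO replicate 1), and that of Pbx2 without WT replicate 2 or KO replicate 2. The scaffold Ldb1 had 51.4 ± 5.94 and 52.7 ± 3.71 CPM (log2 fold change 0.041, standard error 0.11), and Rbpj 137 ± 13.1 and 142 ± 7.59 CPM (0.056, standard error 0.0999).

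The 10 genes were also set against 30 other genes of neural induction and the neural plate, of which 13 were tested. Of these, 8 passed (61.5%, against 24.3% of all genes tested), 4 higher and 4 lower in KO EpiLCs. The median log2 fold change was −0.15. This list holds genes the study itself named from these libraries, such as Zic2 and Nes, so that its count is not independent of them. Zic2, Zic5 and the intermediate filament gene Nes fell (log2 fold changes of −1.32, −1.04 and −1.41), while Otx2 and Gbx2, the latter a gene of the hindbrain boundary, rose (0.92 and 1.09). Otx2 and Sox2, both among the genes that were higher, were also counted among the EpiLC markers, so that the lists share genes. Of the later regional factors, Nkx2-1, Olig2 and Fezf1 had 0 counts in all 6 libraries.

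**Figure D4:**
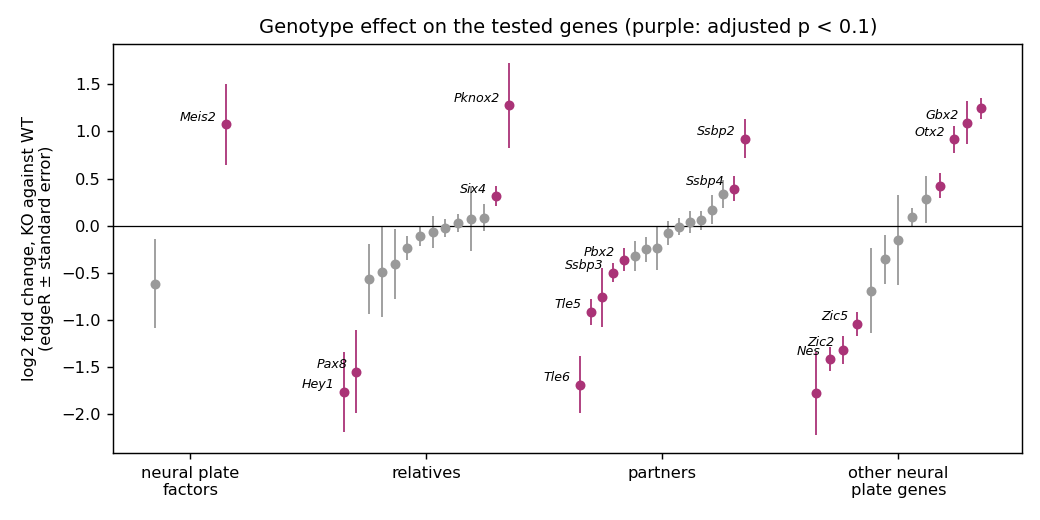
Log2 fold change of KO against WT (y axis, edgeR, bars ± 1 standard error) for the tested genes of each list, in purple at an adjusted p below 0.1, with names for those described. Of the neural plate factors 2 could be placed, Meis1 at −0.62 and Meis2 at 1.07, and each of the other lists holds genes on both sides of 0.

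Markers of neurons were counted at 126 to 148 CPM in WT and 102 to 122 CPM in KO libraries over 13 genes, with Neurog1 at 0 in all 6 libraries. Of the 8 neuronal markers tested, Neurod1 was higher and Tubb3 and Dll3 lower in KO EpiLCs at an adjusted p below 0.1. Of all genes tested, 24.3% passed that threshold, 11.8% higher and 12.5% lower in KO EpiLCs. Of the primitive streak and endoderm markers 4 of 10 were tested and 1, Eomes, was higher. Of the extraembryonic markers 3 of 8 were tested and 2, Gata6 and Pdgfra, were higher. The call of Pdgfra was narrow (adjusted p = 0.0991 by edgeR), and its groups overlapped. Of 8 naïve markers 5 were higher (sums of 210 to 220 CPM in WT and 311 to 394 CPM in KO libraries). The study itself named Klf2, Esrrb and Prdm14 from these libraries, so that the naïve count is not independent of them. No tested marker of the streak and endoderm, extraembryonic or naïve lists was lower at that threshold. Among the untested ones, named after their values were seen, the groups did not overlap for Cdx2 and Foxa2. The extraembryonic marker Cdx2 was lower in KO EpiLCs, with 7, 5 and 3 counts in the WT and 2, 0 and 1 in the KO libraries. The endoderm marker Foxa2 was higher, with 5, 3 and 3 against 9, 5 and 13. Groups did not overlap for 21.5% of all genes with a count. The part of these cell types in the levels of the 10 genes was not tested.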

How the data were processed

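RNA-seq of 6 libraries, 3 WT and 3 Oct6 KO EpiLCs, was analysed. The authors made the libraries from total RNA with a TruSeq stranded kit and Ribo-Zero Gold. The deposited values are raw counts per gene, which the authors obtained with STAR in two-pass mode on GRCm39 after FastQC and Fastp. The STAR version, annotation release, strand setting and treatment of multi-mapping reads are not given in the sources used here. Gene names, positions and exon lengths came from GENCODE M39, which matched 54749 of 55416 identifiers.

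Genes were tested in R 4.3.3 with edgeR 4.0.16 (TMM, filterByExpr with a minimum count of 10, quasi-likelihood test, genotype as the only term), with Benjamini-Hochberg adjustment over 15746 genes and a threshold of 0.1. Genes below the filter were given as counts with exact Poisson or binomial intervals (95%, counting error only) and a two-sided exact permutation test over 20 divisions of the libraries, which cannot go below 0.1. CPM use TMM-normalized library sizes. Fits were tested on simulated data without a shared replicate effect, in which no gene as low as 8 of the 10 genes followed here was changed. The simulation thus says nothing about changes at those levels. DESeq2 1.42.0 was an alternative.

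The members and lists were chosen with earlier results of these data known. All 10 members were named, and of the lists of relatives, partners and other neural plate genes at most the 6 with the smallest adjusted p below 0.1, apart from items that are not reported here. Libraries with the same replicate number, which the design text calls paired, deviated together from their group means over 14793 genes (correlations of 0.223, 0.27 and 0.107, against −0.207 to −0.0245 otherwise). The main fit and the exact permutation tests between genotypes did not use this pairing, and a replicate block was run as an alternative. Libraries of a group differed beyond sampling noise (chi-square per degree of freedom from 6.94 to 11.8). As the KO libraries come from a single clone, p-values measure only the spread between these samples, which may be technical.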

Additional observations from a re-analysis of the deposited data

How the results depend on the processing

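The call of a single gene, Meis2, among the 10 rested on the settings. The number of genes called, at either threshold, was 0 with DESeq2, with library totals alone (log2 fold change of Meis2 1.05, adjusted p = 0.106 by edgeR) and at an adjusted p below 0.05, and from 0 to 1 with each library left out in turn. At least 10 counts in every library left none of the 10 to test. With RLE size factors, with no filter and with the replicate block the number remained 1, the replicate block giving Meis2 a log2 fold change of 1.05 (adjusted p = 0.0541) and Meis1 one of −0.68. At an unadjusted p below 0.05, 1 of the 2 genes tested passed. The number of relatives called was 1 with at least 10 counts in every library, which left 10 relatives to test, and from 2 to 4 with a library left out. It was 2 without WT replicate 1 and 2 without WT replicate 2. The number of partners called was from 4 to 7 with a library left out, the 4 being without WT replicate 2, and 10 with the replicate block. For the other neural plate genes it ran from 7 to 9. The direction of each of the 18 genes followed here was the same in every alternative run. Of the 10 genes, 8 had too few counts for a value in the filtered fits.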
